A study of Homo sapiens with 9 samples.

Results

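The genes described are 10 transporters that carry amino acids across the plasma membrane: SLC3A2, SLC7A5, SLC7A11, SLC7A1, SLC1A4, SLC1A5, SLC38A1, SLC38A2, SLC43A1 and SLC6A9. They were taken by symbol from a table of 61806 Ensembl gene identifiers, 10 of 10 had a row, and 10 of 10 passed the filter on low counts that left 20868 genes for testing. The study measured RNA by sequencing in HCT116, an established human colorectal carcinoma cell line kept in McCoy's 5A medium with serum. Cells had been transfected with 1 of 3 small interfering RNAs using Lipofectamine RNAiMax: EXOSC10-AS1 siRNA 1#, EXOSC10-AS1 siRNA 2# (siRNA 1 and siRNA 2 below) or a negative control siRNA. EXOSC10-AS1 is a noncoding RNA named for its position antisense to EXOSC10, and the design asks what changes when it is targeted by either of the siRNAs. Each group had 3 libraries of total RNA, all given the same batch, Day 3, in the labels. Every group was transfected, and no untransfected group was analysed here. The replicates are numbered in the labels without saying whether they were separate cultures, so p-values measure the spread between these libraries, which may be technical.

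Amino acid transporters fall into families that differ in substrate and in driving force. Heteromeric transporters join a light chain of the SLC7 family, which moves the amino acid, to a single-pass heavy chain that brings it to the cell surface. Others work as single proteins, coupled to sodium, to chloride or to the exchange of one amino acid for another. In many cells that lack amino acids, the kinase encoded by EIF2AK4 raises translation of the transcription factor ATF4, which binds C/EBP-ATF elements with C/EBP partners and activates genes of transport and of amino acid synthesis. Colorectal cancer cells are known to use SLC7A5 and SLC1A5 for leucine and glutamine supply and SLC7A11 for cystine.

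Promoter windows of the RefSeq annotation (GRCh38.p14), from 250 bases before to 50 bases after a gene's start, were searched on both strands for the C/EBP-ATF core TGATGNAA. There were 16 windows for 9 members, and SLC7A11 had none. The core was present in 5 of the 9 members (SLC3A2, SLC7A1, SLC1A4, SLC1A5 and SLC38A1), against 2.8% of the 12760 tested genes that had a window. A match is only a run of letters in the window and not evidence of binding. The windows of SLC3A2 (1 of 3), SLC1A4 (1 of 2) and SLC7A1 are shown because these genes moved in opposite directions with siRNA 1 and siRNA 2 and hold the core, and that of SLC7A5 because it moved likewise and had no match. Each runs 5′ to 3′ on the gene's strand, and capitals mark the core or its reverse complement.
SLC3A2, chr11:62881449-62881748, plus strand: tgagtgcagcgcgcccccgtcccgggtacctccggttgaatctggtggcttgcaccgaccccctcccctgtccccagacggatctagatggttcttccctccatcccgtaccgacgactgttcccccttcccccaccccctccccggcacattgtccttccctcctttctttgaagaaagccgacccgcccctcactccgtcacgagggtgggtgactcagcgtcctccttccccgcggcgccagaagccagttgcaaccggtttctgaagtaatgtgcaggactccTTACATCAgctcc
SLC1A4, chr2:64989149-64989448, plus strand: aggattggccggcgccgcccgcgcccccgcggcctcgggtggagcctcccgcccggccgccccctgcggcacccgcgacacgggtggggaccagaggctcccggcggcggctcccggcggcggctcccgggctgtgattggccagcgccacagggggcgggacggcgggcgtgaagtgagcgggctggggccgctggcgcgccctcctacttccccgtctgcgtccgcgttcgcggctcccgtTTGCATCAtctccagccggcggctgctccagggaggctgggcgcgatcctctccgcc
SLC7A1, chr13:29595639-29595938, minus strand: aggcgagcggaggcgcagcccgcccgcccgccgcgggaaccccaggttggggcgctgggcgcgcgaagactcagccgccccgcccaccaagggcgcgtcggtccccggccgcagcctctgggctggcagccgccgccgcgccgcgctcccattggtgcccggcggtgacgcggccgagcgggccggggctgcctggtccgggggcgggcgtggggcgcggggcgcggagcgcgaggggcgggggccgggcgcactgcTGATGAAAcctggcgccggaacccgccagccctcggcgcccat
SLC7A5, chr16:87869458-87869757, minus strand: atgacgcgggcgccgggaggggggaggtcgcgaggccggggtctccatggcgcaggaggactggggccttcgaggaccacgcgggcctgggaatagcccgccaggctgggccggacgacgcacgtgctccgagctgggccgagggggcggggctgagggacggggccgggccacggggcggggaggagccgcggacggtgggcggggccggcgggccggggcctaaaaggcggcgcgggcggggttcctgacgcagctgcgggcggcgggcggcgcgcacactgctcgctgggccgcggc
The match began at position 38 after the start in SLC3A2 (TTACATCA), at -7 in SLC1A4 (TTGCATCA) and at 8 in SLC7A1 (TGATGAAA). SLC1A5 held TGATGCAA at -97 of 1 of its 3 windows, and SLC38A1 held TGATGAAA at -4 of 1 of 2. The E-box CACGTG was found in SLC7A5, SLC1A5 and SLC43A1, 3 of 9 members, against 12.0% of tested genes with a window. The antioxidant response element core TGACNNNGC was found in SLC3A2, SLC7A5, SLC7A1 and SLC1A5, 4 of 9, against 19.0%. In SLC3A2, SLC7A1 and SLC1A5 it did not share bases with the C/EBP-ATF core. Genes with more windows had more chances to match any of these motifs.

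The libraries held 56757567 to 66496723 counts. EXOSC10-AS1 itself was near the limit of detection, with 4, 0 and 0 counts in siRNA 1, 5, 13 and 0 in siRNA 2 and 26, 4 and 14 in control libraries, and it was not called with either siRNA (adjusted p = 0.19 for siRNA 1 and 0.55 for siRNA 2, edgeR quasi-likelihood test, Benjamini-Hochberg over 20868 genes). The counts therefore give no firm check of the knockdown. All 6 colon epithelial markers (EPCAM, CDH1, KRT8, KRT18, KRT19, CLDN7) were detected, summing to 4190 to 4940 CPM (counts scaled to a library of 1000000) in siRNA 1, 3650 to 4290 in siRNA 2 and 4920 to 5020 in control libraries. Most of that sum is KRT8, KRT18 and KRT19, and single markers differed in direction. With siRNA 1, CDH1 (log2 change 0.30, adjusted p = 0.019) and CLDN7 (0.69, adjusted p = 0.012) rose. With siRNA 2, KRT8 (-0.40, adjusted p = 0.019), KRT18 (-0.30, adjusted p = 0.035), KRT19 (-0.38, adjusted p = 0.021) and CLDN7 (-0.62, adjusted p = 0.013) fell. Their part in the results was not tested. Of 6 fibroblast markers 3 passed the filter and summed to 46.7 to 52.2, 36.3 to 40.2 and 59.5 to 61.2 CPM in siRNA 1, siRNA 2 and control. Nearly all of it was COL1A1, which was lower with siRNA 2 (-0.69, adjusted p = 0.00081) and not called with siRNA 1 (-0.30). COL1A2, COL3A1 and LUM were under the filter, so the sum is the level of 1 gene and no measure of a cell type. The leukocyte markers PTPRC, CD3E and TYROBP were at 0 in all 9 libraries. In bulk RNA, a change in some cells and a change in all cells cannot be told apart, and the part of these shifts in the results was not tested. Finally, 3 libraries stood apart in how gene levels followed GC content. Across 12156 genes, which are not independent replicates, Spearman's correlation of GC content with the deviation from the control mean was 0.627 in siRNA 1 replicate 1, against -0.091 and -0.085 in the other siRNA 1 libraries. It was -0.563 and -0.573 in siRNA 2 replicates 2 and 3, against -0.198 in replicate 1, and between -0.093 and 0.127 in control libraries. Members range from 35.4% GC in SLC7A11 to 61.3% in SLC1A5, so calls were also made with this trend removed. Control libraries are part of the mean they were compared with, and siRNA libraries are not. All 3 siRNA 2 values were negative, so trend and group go partly together. Removing the trend can therefore also take away or add differences between groups, and these cannot be told apart here.

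With siRNA 1, 6 members rose against control siRNA (SLC3A2, SLC7A5, SLC7A1, SLC1A4, SLC1A5 and SLC43A1) and 0 fell, where 3.72% of all tested genes rose and 3.36% fell at an adjusted p under 0.05. The members' median log2 fold change was 0.55, against -0.02 for all tested genes. With siRNA 2, 4 members fell (SLC3A2, SLC7A5, SLC7A1 and SLC1A4) and 0 rose, where 7.61% of tested genes fell and 6.15% rose, and the members' median was -0.19 against -0.01. With the GC trend removed, 2 members rose (SLC7A11 and SLC1A5) and 5 fell (SLC38A2 besides the 4 above) with siRNA 2, 7 rose and 1 fell with siRNA 1, and 0 were higher and 5 lower between siRNA 2 and siRNA 1. For siRNA 2 the background of 20868 genes then had 2494 higher and 2028 lower, against 1284 higher and 1588 lower as deposited. It had 2348 higher and 1911 lower with siRNA 1, against 777 and 701 as deposited. In siRNA 2 against siRNA 1 it had 2845 higher and 2893 lower, against 2116 and 2565. Comparing siRNA 2 with siRNA 1 directly, 5 members were lower and 0 higher, where 12.3% of genes were lower and 10.1% higher, with a median of -0.44 against 0.00. Both comparisons with control use the same 3 control libraries, so they are not independent of each other. Groups did not overlap for 7 of 10 members with siRNA 1 (the same held for 34.7% of all tested genes), for 8 of 10 with siRNA 2 (39.9%) and for 7 of 10 between siRNA 2 and siRNA 1 (38.6%). Calls in either direction made up 7.08%, 13.8% and 22.4% of tested genes in these comparisons. The 4 genes called in both comparisons with control were higher with siRNA 1 and lower with siRNA 2. Members summed to 2490, 2580 and 2550 CPM in siRNA 1, 1630, 1680 and 1660 CPM in siRNA 2 and 2030, 2040 and 2000 CPM in control libraries.

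**Figure D1:**
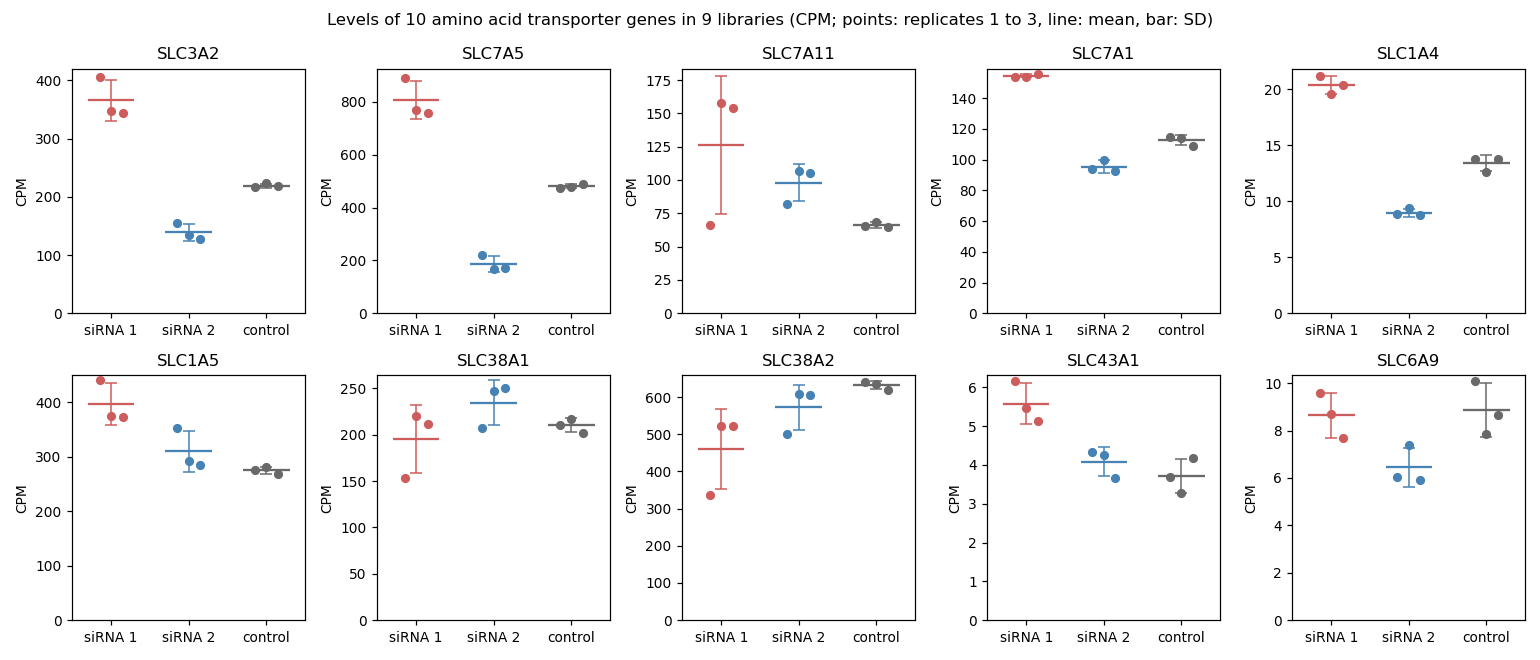
Level of each of the 10 transporter genes in CPM (vertical axes, from 0) in siRNA 1, siRNA 2 and control libraries; points are replicates 1 to 3, lines are means and bars are SD. SLC3A2, SLC7A5, SLC7A1 and SLC1A4 lie above control with siRNA 1 and below it with siRNA 2, while in SLC7A11 siRNA 1 replicate 1, at 66.3 CPM, sits with the control libraries.

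SLC3A2 (ENSG00000168003) encodes the CD98 heavy chain, the partner of several SLC7 light chains. It had 406, 348 and 343 CPM in siRNA 1 libraries, 155, 134 and 128 CPM in siRNA 2 libraries and 216, 223 and 218 CPM in control libraries. The 3 groups did not overlap: every siRNA 1 library was above and every siRNA 2 library below all controls. SLC3A2 rose by 0.74 ± 0.09 on the log2 scale with siRNA 1 (SE; adjusted p = 0.0019) and with siRNA 2 fell by 0.66 ± 0.09 (adjusted p = 0.0017). The difference of siRNA 2 from siRNA 1 was -1.40 ± 0.09 (adjusted p = 4e-05). With the GC trend removed the 3 differences were 0.70, -0.50 and -1.20, and no single library left out ended a call.

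SLC7A5 (ENSG00000103257) encodes LAT1, the light chain that exchanges leucine and other large neutral amino acids for internal glutamine. Its levels were 890, 770 and 760 CPM with siRNA 1, 222, 169 and 172 CPM with siRNA 2 and 474, 480 and 489 CPM with control siRNA. Again the groups were apart, and control libraries varied least, with a highest to lowest ratio of 1.03, against 1.17 in siRNA 1 and 1.31 in siRNA 2. SLC7A5 rose by 0.75 ± 0.11 in siRNA 1 libraries (adjusted p = 0.0036). In siRNA 2 libraries its log2 change was -1.36 ± 0.11 (adjusted p = 0.00014), a level 0.39 times that of control. Between the siRNAs it was -2.10 ± 0.11 (adjusted p = 1.5e-05). Without the GC trend these were 0.72, -1.10 and -1.82. Reads of the SLC7A5P1 and SLC7A5P2 copies, which resemble SLC7A5, came to between 1 and 39 counts per gene and library, against 274909 for SLC7A5 over all libraries; the treatment of shared reads is not stated in the labels.

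SLC7A11 (ENSG00000151012) encodes xCT, which with SLC3A2 imports cystine in exchange for glutamate. It had 66.3, 158 and 154 CPM in siRNA 1, 82.1, 107 and 105 CPM in siRNA 2 and 65.3, 68.7 and 64.6 CPM in control libraries. Replicate 1 of siRNA 1 lay inside the control range and the other siRNA 1 libraries far above it, whereas siRNA 2 and control did not overlap. As counted, no comparison passed in the edgeR fit of all 9 libraries. The values were 0.93 ± 0.27 with siRNA 1 (adjusted p = 0.064), 0.57 ± 0.27 with siRNA 2 (adjusted p = 0.19) and -0.36 ± 0.26 between siRNA 2 and siRNA 1 (adjusted p = 0.36). Other settings did call it. With siRNA 1 these were DESeq2 (0.94, adjusted p = 0.00306) and upper quartile factors (0.94, adjusted p = 0.0464). With siRNA 2 it was the edgeR fit of only the 2 groups compared (0.57, adjusted p = 0.00569). Replicate 1 of siRNA 1 is the library whose levels rose with GC content, and SLC7A11 has the lowest GC content of the members, 35.4%. Setting it aside gave 1.24 for siRNA 1 (adjusted p = 0.000171), 0.57 for siRNA 2 (adjusted p = 0.00224) and -0.67 between them (adjusted p = 0.00195). With all libraries and the GC trend removed, the values were 1.15 (adjusted p = 2.4e-05), 0.40 (adjusted p = 0.010) and -0.75 (adjusted p = 0.0002). GC-corrected levels were 121, 156 and 153 CPM in siRNA 1, 77.4, 90.3 and 88.7 CPM in siRNA 2 and 63.3, 66.8 and 63.5 CPM in control, with no overlap of groups. SLC7A11-AS1, on the opposite strand, had 218 counts over all libraries against 54528 for SLC7A11.

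**Figure D2:**
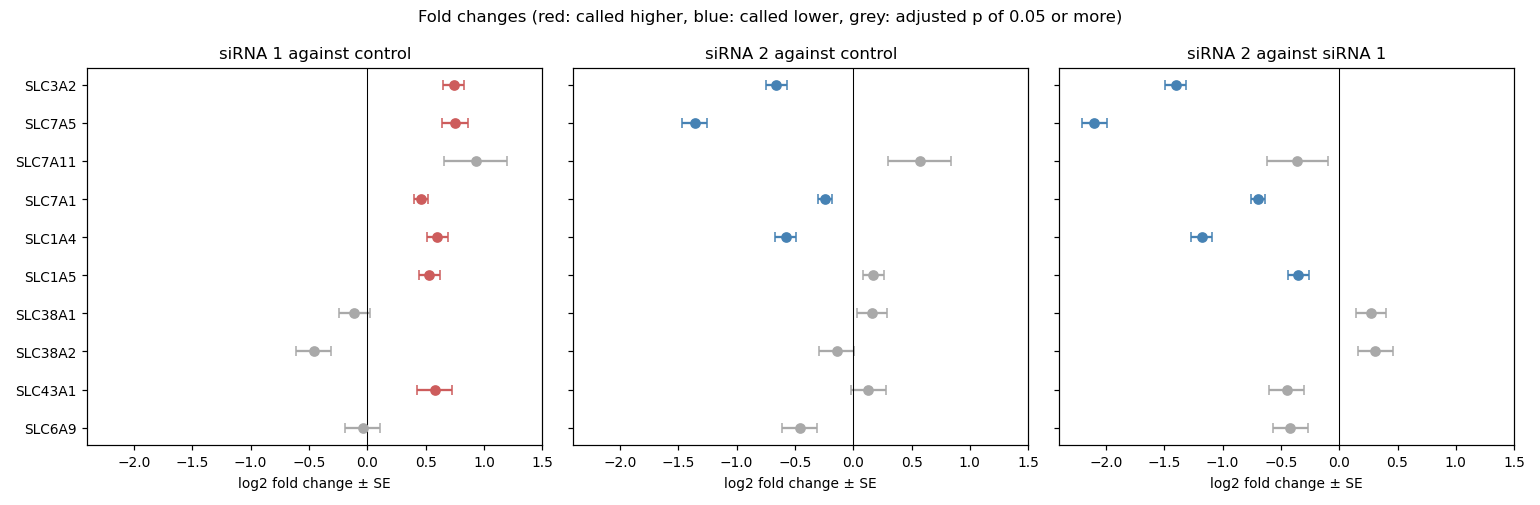
Log2 fold changes with their standard errors (horizontal axes) for the 10 members (rows) in 3 comparisons, from edgeR fits over 9 libraries; red marks called higher, blue called lower and grey not called. SLC7A5 has the most negative value with siRNA 2, -1.36 against control and -2.10 against siRNA 1, and SLC7A11 has the widest errors.

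The balance of heavy and light chain RNA was taken as the ratio of their counts within a library, which does not depend on library scaling. The log2 ratio of SLC3A2 to SLC7A5 averaged -1.14 ± 0.01 in siRNA 1, -0.43 ± 0.09 in siRNA 2 and -1.13 ± 0.03 in control libraries (SD, n = 3 each). With siRNA 1 the ratio differed from control by less than the spread between libraries. With siRNA 2 there were 0.743 SLC3A2 counts per SLC7A5 count, against 0.456 in control. An exact permutation test over the 3 groups gave p = 0.025. Pairwise exact two-sided p-values, which cannot go under 0.10 with 3 against 3, were 0.7 for siRNA 1 against control (difference -0.01), 0.1 for siRNA 2 against control (0.70) and 0.1 for siRNA 2 against siRNA 1 (0.71). The log2 ratio of SLC3A2 to SLC7A11 was 1.63 ± 0.85 in siRNA 1, 0.50 ± 0.35 in siRNA 2 and 1.73 ± 0.03 in control, with p = 0.0571 over the 3 groups by exact permutation. Its siRNA 1 libraries had log2 ratios of 2.61, 1.13 and 1.15, the high one again being replicate 1.

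Per kilobase of the longest coding transcript, 6 light chain genes known to pair with SLC3A2 (SLC7A5, SLC7A6, SLC7A7, SLC7A8, SLC7A10 and SLC7A11) were summed. The sum was 1.19, 1.29 and 1.28 times the SLC3A2 level in siRNA 1, 1.07, 1.10 and 1.18 times in siRNA 2 and 1.27, 1.28 and 1.31 times in control libraries. SLC7A5 made up 90.3, 83.8 and 84.5% of the light chain sum in siRNA 1, 65.4, 56.5 and 55.7% in siRNA 2 and 84.5, 82.4 and 83.4% in control. Its share in every siRNA 2 library was below all other libraries. SLC7A11 held 3.16, 8.11 and 8.07% in siRNA 1, 11.4, 16.8 and 16.1% in siRNA 2 and 5.48, 5.55 and 5.19% in control. SLC7A6, a light chain that exchanges cationic for neutral amino acids, held 4.02, 5.52 and 4.95% in siRNA 1, 18.1, 19.9 and 22.4% in siRNA 2 and 7.07, 8.90 and 8.52% in control. SLC7A6 itself had 85.5, 83.1 and 95.8 CPM with siRNA 2 and 55.1, 72.0 and 69.4 CPM with control siRNA, a log2 change of 0.43 ± 0.12 (adjusted p = 0.043). That call was lost when any 1 control was left out, and likewise siRNA 1 replicate 3, siRNA 2 replicate 2 and siRNA 2 replicate 3. The largest adjusted p was 0.163, reached when the last of these was absent. Shares were not corrected for GC content, which is 61.1% in SLC7A5, 47.0% in SLC7A6 and 35.4% in SLC7A11.

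**Figure D3:**
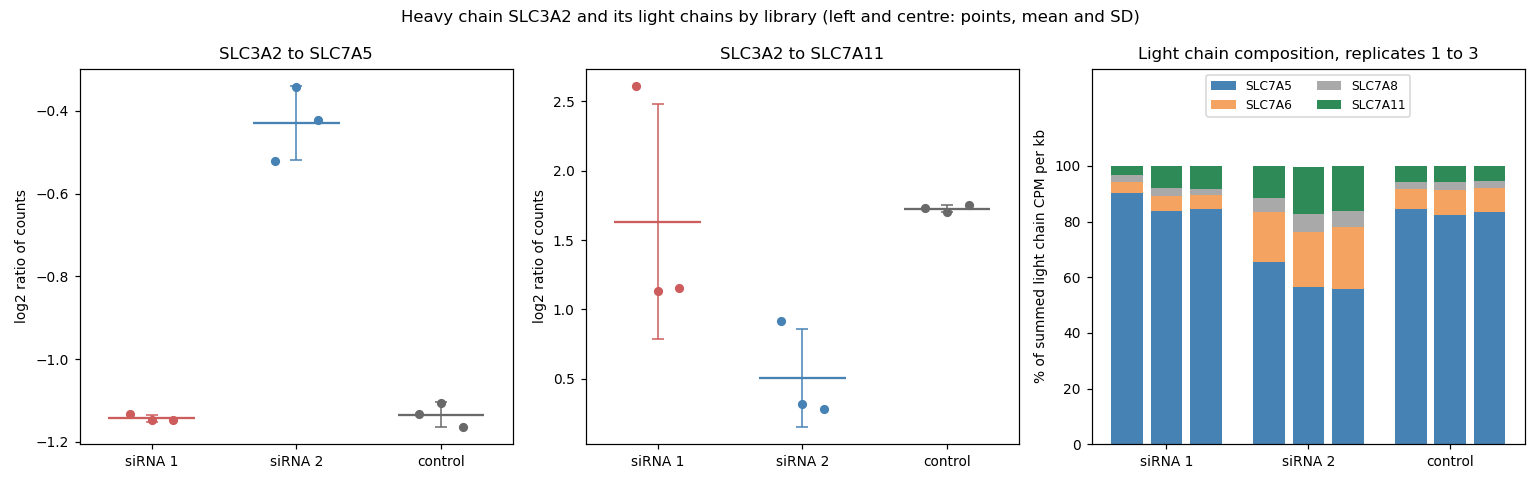
Left and centre, log2 ratio of SLC3A2 counts to SLC7A5 and to SLC7A11 counts by library (points, with mean and SD); right, share of each light chain gene in the summed light chain CPM per kilobase, as stacked bars for replicates 1 to 3. SLC7A5 makes up 55.7 to 65.4% of the sum in siRNA 2 libraries, against 82.4 to 84.5% in control libraries.

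SLC7A1 (ENSG00000139514) encodes CAT1, a carrier of arginine and lysine that needs no heavy chain. It had 154, 154 and 156 CPM with siRNA 1, 93.9, 100 and 92.4 CPM with siRNA 2 and 115, 114 and 109 CPM with control siRNA. The groups were apart and the siRNA 1 libraries nearly equal, with a highest to lowest ratio of 1.01. SLC7A1 rose by 0.46 ± 0.06 with siRNA 1 (adjusted p = 0.0028), and siRNA 2 was 0.70 ± 0.06 below siRNA 1 (log2 difference -0.70, adjusted p = 0.00012). It fell by 0.24 ± 0.06 with siRNA 2 against control (adjusted p = 0.031). This last call was lost when any 1 control was left out, and likewise replicate 2 or replicate 3 of either siRNA. Values then lay between -0.27 and -0.21 and the adjusted p reached 0.143 when control 1 was absent. It was also lost with upper quartile factors (adjusted p = 0.0821).

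SLC1A4 and SLC1A5 encode the neutral exchangers ASCT1 and ASCT2, which move alanine, serine, cysteine and, for ASCT2, glutamine. SLC1A4 (ENSG00000115902) had 21.2, 19.6 and 20.4 CPM in siRNA 1, 8.82, 9.39 and 8.73 CPM in siRNA 2 and 13.8, 12.6 and 13.8 CPM in control libraries, with no overlap. It rose by 0.60 ± 0.09 with siRNA 1 (adjusted p = 0.0051) and in siRNA 2 libraries fell by 0.58 ± 0.09 (adjusted p = 0.0041). Set against siRNA 1, siRNA 2 gave a log2 difference of -1.18 ± 0.09 (adjusted p = 8.7e-05). Without the GC trend these were 0.57, -0.53 and -1.10, and no single library ended a call.

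SLC1A5 (ENSG00000105281) did not follow SLC1A4 with siRNA 2. Its levels were 441, 376 and 374 CPM with siRNA 1, 354, 293 and 285 CPM with siRNA 2 and 276, 282 and 268 CPM with control siRNA. The siRNA 1 libraries were highest, the siRNA 2 libraries between them and the controls, and no groups overlapped. SLC1A5 rose by 0.53 ± 0.09 with siRNA 1 (adjusted p = 0.0099), a call lost without any 1 of the 3 controls (adjusted p up to 0.064, without control 3, with a value of 0.51). With siRNA 2 the log2 change was 0.17 ± 0.09 (adjusted p = 0.26). Against siRNA 1, siRNA 2 was lower by a log2 difference of -0.35 ± 0.09 (adjusted p = 0.025), and this was lost without siRNA 2 replicate 2 (-0.31, adjusted p = 0.101) or 3 (-0.30, adjusted p = 0.103). SLC1A5 has the highest GC content of the members, 61.3%, and with the trend removed the siRNA 2 change was 0.44 (adjusted p = 2.7e-05) and the difference between the siRNAs was -0.07 (adjusted p = 0.23). GC-corrected levels were 370, 373 and 372 CPM in siRNA 1, 354, 359 and 351 CPM in siRNA 2 and 265, 269 and 254 CPM in control.

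SLC38A1 and SLC38A2 encode SNAT1 and SNAT2, sodium-coupled importers of glutamine, alanine and other small neutral amino acids. SLC38A1 (ENSG00000111371) had 153, 220 and 212 CPM in siRNA 1, 207, 247 and 250 CPM in siRNA 2 and 211, 217 and 202 CPM in control libraries. All 3 groups overlapped, and replicate 1 was lowest in both siRNA groups. None of its log2 changes passed, at -0.11 ± 0.13 in siRNA 1 (adjusted p = 0.68), 0.16 ± 0.13 in siRNA 2 (adjusted p = 0.47) and 0.27 ± 0.13 between siRNA 2 and siRNA 1 (adjusted p = 0.17). With the GC trend taken out its log2 changes were 0.00 with siRNA 1 (adjusted p = 0.98), 0.04 with siRNA 2 (adjusted p = 0.69) and 0.04 between siRNA 2 and siRNA 1 (adjusted p = 0.64).

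SLC38A2 (ENSG00000134294) had the highest level per kilobase of the members in control libraries. It had 337, 523 and 522 CPM with siRNA 1, 502, 609 and 605 CPM with siRNA 2 and 640, 636 and 619 CPM with control siRNA. Every library of both siRNA groups was below all controls, while the siRNA groups overlapped each other. The log2 changes were -0.46 ± 0.15 with siRNA 1 (adjusted p = 0.095), -0.14 ± 0.15 with siRNA 2 (adjusted p = 0.59) and 0.31 ± 0.15 between siRNA 2 and siRNA 1 (adjusted p = 0.16). With replicate number as a block, the siRNA 1 value was -0.48 (adjusted p = 0.047), and with DESeq2 it was -0.45 (adjusted p = 0.0325). At 38.1% GC the gene was sensitive to the GC trend. Corrected levels were 525, 520 and 523 CPM in siRNA 1, 479, 529 and 524 CPM in siRNA 2 and 632, 629 and 617 CPM in control. Corrected, siRNA 1 libraries differed from control by -0.26 (adjusted p = 0.0019) and siRNA 2 libraries by -0.29 (adjusted p = 0.0008), and the difference between the siRNAs turned to -0.03 (adjusted p = 0.63).

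**Figure D4:**
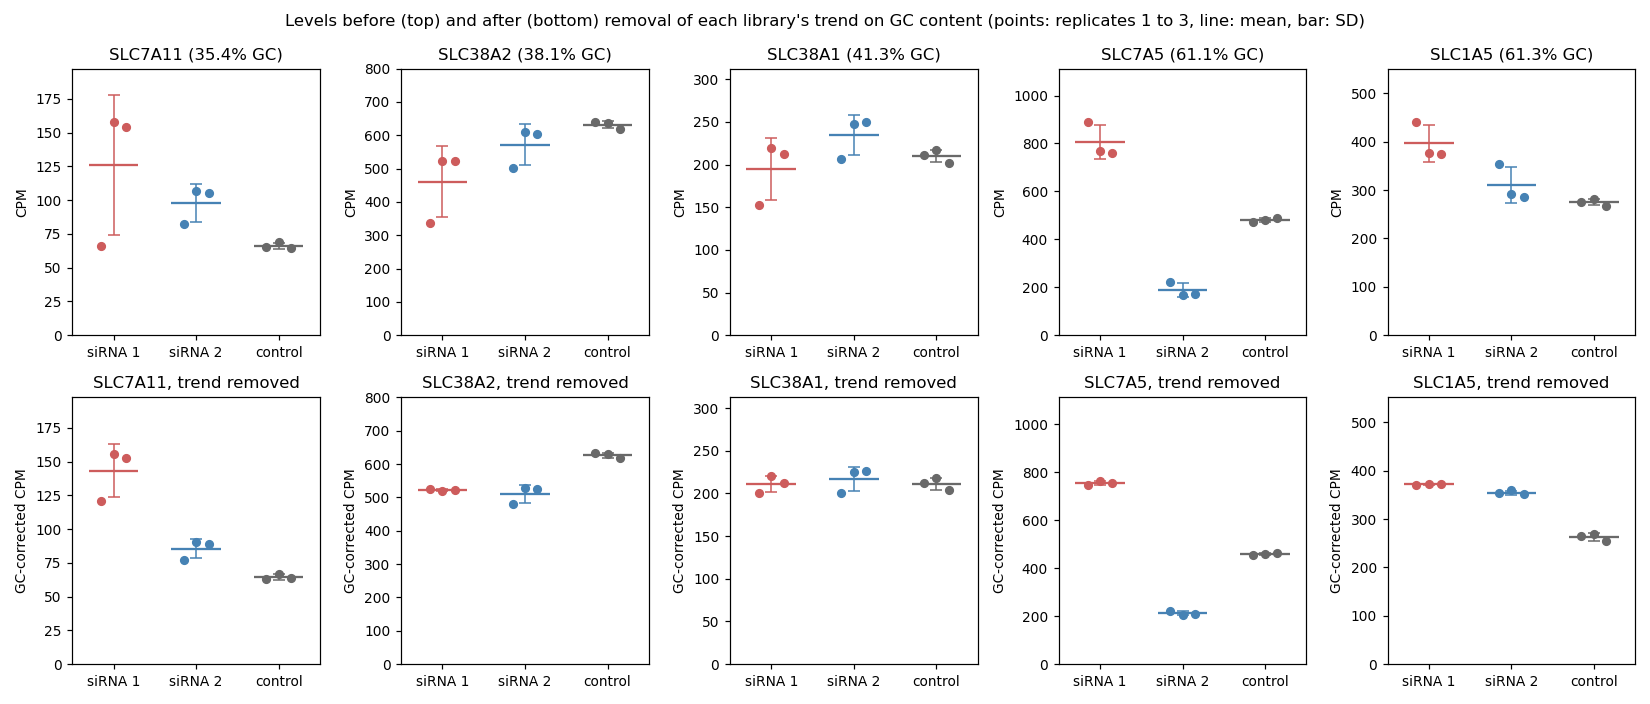
Levels of 5 members in CPM (vertical axes, from 0) before and after removal of each library's trend on GC content, in siRNA 1, siRNA 2 and control libraries; points are replicates 1 to 3, lines are means and bars are SD. After removal the siRNA 1 libraries of SLC38A2 lie at 520 to 525 CPM, against 337 to 523 CPM before it, and SLC7A5 keeps its order of groups.

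SLC43A1 and SLC6A9 were, with SLC1A4, the members of lowest level per kilobase. SLC43A1 (ENSG00000149150), which encodes LAT3, a facilitative carrier of leucine and other branched-chain amino acids, had 6.16, 5.46 and 5.12 CPM in siRNA 1, 4.34, 4.26 and 3.66 CPM in siRNA 2 and 3.70, 3.28 and 4.17 CPM in control libraries. Its siRNA 1 libraries were above all others, and siRNA 2 overlapped control. It rose by 0.58 ± 0.15 with siRNA 1 (adjusted p = 0.047). The call was lost in 8 of 9 fits that left out 1 library, all but that without siRNA 2 replicate 1 (adjusted p up to 0.182, without control 2, at 0.50). It was also lost with replicate number as a block (0.58, adjusted p = 0.065). The changes were 0.13 ± 0.15 with siRNA 2 (adjusted p = 0.62) and -0.45 ± 0.15 between siRNA 2 and siRNA 1 (adjusted p = 0.057), or 0.32 (adjusted p = 0.13) and -0.23 (adjusted p = 0.25) with the GC trend removed. The difference between the siRNAs was called by DESeq2 (-0.44, adjusted p = 0.0267) and limma-voom (-0.45, adjusted p = 0.0456).

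SLC6A9 (ENSG00000196517) encodes the glycine transporter GlyT1, driven by sodium and chloride. It had 9.58, 8.70 and 7.68 CPM with siRNA 1, 6.03, 7.41 and 5.92 CPM with siRNA 2 and 10.1, 7.85 and 8.67 CPM with control siRNA. The siRNA 2 libraries were below all others, and siRNA 1 overlapped control. Changes of -0.04 ± 0.15 with siRNA 1 (adjusted p = 0.91), -0.46 ± 0.15 with siRNA 2 (adjusted p = 0.067) and -0.42 ± 0.15 between siRNA 2 and siRNA 1 (adjusted p = 0.067) did not pass. DESeq2 called it with siRNA 2 (-0.45, adjusted p = 0.0269) and between siRNA 2 and siRNA 1 (-0.42, adjusted p = 0.0356). Without siRNA 1 replicate 1 the siRNA 2 value was -0.46 (adjusted p = 0.0415), while with the GC trend removed it was -0.23 (adjusted p = 0.34) and the difference between the siRNAs was -0.16 (adjusted p = 0.49). CCDC24, which overlaps SLC6A9 on the opposite strand, had 11349 counts in all against 4438 for SLC6A9, so these values are uncertain if counting ignored strand.

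The order of levels, in CPM per kilobase, differed between groups. In siRNA 1 libraries SLC7A5 (178) and SLC3A2 (165) came first and overlapped, followed by SLC1A5 (138) and SLC38A2 (94.3). In siRNA 2 libraries SLC38A2 (117) and SLC1A5 (108) came first and overlapped, followed by SLC3A2 (62.5) and SLC7A5 (41.4). Control libraries had SLC38A2 (129) first, then SLC7A5 (106), then SLC3A2 (98.7) and SLC1A5 (95.5), which overlapped. Thus SLC7A5 stood at the top with siRNA 1, below SLC3A2 with siRNA 2 and next to the top with control siRNA. SLC38A1, SLC7A1 and SLC7A11 came next in all 3 groups, at 24.2, 21.1 and 13.1 in siRNA 1, 29.1, 13.0 and 10.2 in siRNA 2 and 26.0, 15.3 and 6.87 in control. SLC1A4, SLC6A9 and SLC43A1 were last, between 1.43 and 4.47. These levels were not corrected for GC content, which is 38.1% in SLC38A2 and 61.3% in SLC1A5. With the trend removed, SLC1A5 had 354, 359 and 351 CPM in siRNA 2 libraries and SLC38A2 479, 529 and 524 CPM. Over their transcript lengths (2882 and 4888 bases) this puts SLC1A5 first in siRNA 2 libraries, so the order there depends on the correction.

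Genes with the most similar pattern were found by the root mean square difference of mean-centred log2 CPM over the 9 libraries, among 12189 genes. For SLC3A2 they were NBL1 (0.06), CLDN7 (0.08) and MTSS2 (0.107), where SLC3A2 itself varied by 0.58 about its mean. For SLC7A5, which varied by 0.88, they were CHAC1 (0.132), WNT7B (0.184) and UPP1 (0.202). For SLC7A11, which varied by 0.49, they were CCNE2 (0.126), SAMD5 (0.172) and PDE3B (0.218). The values are descriptive and include the trend on GC content.

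The 44 other transporter genes listed, of which 28 could be tested, had calls in both directions. The list was made for amino acid carriers. It also holds SLC43A3 and SLC29A3, known as carriers of nucleobases and nucleosides, so its counts are not all of amino acid carriers. With siRNA 1, 2 rose and 4 fell, where 3.72% of all tested genes rose and 3.36% fell. With siRNA 2, 3 rose and 1 fell, where 6.15% rose and 7.61% fell, so 4 of 28 called is near the 13.8% called over all genes. Between siRNA 2 and siRNA 1, 6 were higher and 7 lower, where 10.1% were higher and 12.3% lower. With the GC trend removed, 6 rose and 4 fell with siRNA 1, 4 rose and 2 fell with siRNA 2, and 10 were higher and 5 lower between the siRNAs. Calls over all 20868 genes were then also more, at 4259 with siRNA 1, 4522 with siRNA 2 and 5738 between the siRNAs. With siRNA 2 the share of listed genes called was thus near that of all genes. The medians without that correction were -0.06, 0.02 and 0.14. Of 5 listed carriers of glutamate and aspartate 3 were tested, and 2 of them fell with siRNA 1, SLC1A3 by 1.20 ± 0.12 (adjusted p = 0.00082) and SLC1A1 by 0.53 ± 0.07 (adjusted p = 0.0036), while SLC1A2 did not pass (-1.87, adjusted p = 0.23). SLC1A3 had 8.82, 11.0 and 11.3 CPM in siRNA 1, 18.4, 21.2 and 18.7 CPM in siRNA 2 and 22.1, 23.6 and 25.9 CPM in control libraries, so its siRNA 1 libraries were the lowest. The neutral light chain gene SLC7A8 rose by 0.51 ± 0.10 with siRNA 1 (adjusted p = 0.013; lost without control 1 or control 3, adjusted p up to 0.0747). SLC38A3, a system N glutamine carrier, rose by 0.98 ± 0.22 (adjusted p = 0.026; lost without any 1 control, up to 0.119 without control 2). SLC36A1, a proton-coupled carrier, fell by 0.55 ± 0.11 (adjusted p = 0.019; lost without control 2, control 3 or siRNA 1 replicate 3, up to 0.0957). SLC6A20, an imino acid carrier, fell by 0.67 ± 0.17 (adjusted p = 0.044), a call lost in 7 of 9 fits without 1 library (up to 0.165, without control 2; kept without siRNA 1 replicate 2 or siRNA 2 replicate 1) and with the block (adjusted p = 0.0576).

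With siRNA 2, SLC6A6, the taurine transporter gene, fell by 0.39 ± 0.06 (adjusted p = 0.003). SLC43A2, the LAT4 gene, rose by 0.51 ± 0.09 (adjusted p = 0.0072), and these calls were kept without any single library. SLC7A2, which encodes a cationic carrier like CAT1, had 14.6, 21.7 and 21.0 CPM with siRNA 2 and 12.5, 12.2 and 12.6 CPM with control siRNA. It rose by 0.61 ± 0.16 (adjusted p = 0.032), a call that ended when any 1 control, siRNA 2 replicate 2 or siRNA 2 replicate 3 was left out, with adjusted p up to 0.131. With siRNA 1 replicate 1 and siRNA 2 replicates 2 and 3 left out together, which leaves 1 siRNA 2 library, its value was 0.23. Between siRNA 2 and siRNA 1, 4 genes were lower that were called in neither comparison with control: SLC38A5 (-0.40), SLC38A10 (-0.36), SLC6A17 (-0.36) and SLC66A1 (-0.43). Each was lost without siRNA 2 replicate 2 and without replicate 3 (adjusted p up to 0.0908 for SLC38A5, 0.115 for SLC38A10, 0.166 for SLC6A17 and 0.151 for SLC66A1), and those but SLC38A5 also without any 1 control. With the GC trend removed, SLC38A10 was at 0.02, SLC6A17 at -0.14 and SLC66A1 at -0.07, none of them called, and SLC38A5 was at -0.20 (adjusted p = 0.023). Against control, SLC38A10 fell with siRNA 2 when replicate number was a block (-0.30, adjusted p = 0.04, against -0.29, adjusted p = 0.083 without it). So did MFSD12, which takes part in cysteine import into lysosomes (-0.32, adjusted p = 0.036, against -0.31, adjusted p = 0.071). MFSD12 is named here after its values were seen. With the GC trend removed both values had the other sign, 0.06 (adjusted p = 0.39) for SLC38A10 and 0.17 (adjusted p = 0.19) for MFSD12, and MFSD12 was then higher in siRNA 2 than in siRNA 1 libraries (0.38, adjusted p = 0.0071).

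A further list held 17 genes, of which 16 were tested, chosen with earlier results of these data known. It has 12 genes of the amino acid response, among them ATF4 targets such as ASNS and CHAC1, and 5 other regulators of transporter genes. Calls on this list are therefore not all calls of regulators. With siRNA 1, 7 rose and 1 fell (3.72% and 3.36% of all tested genes). With siRNA 2, 1 rose and 7 fell (6.15% and 7.61%), and between siRNA 2 and siRNA 1, 0 were higher and 10 lower (10.1% and 12.3%), with medians of 0.34, -0.28 and -0.65. Once the GC trend was removed, 9 rose and 1 fell with siRNA 1, 2 rose and 8 fell with siRNA 2, and 1 was higher and 10 lower between the siRNAs. Of all 20868 genes, 2348 then rose and 1911 fell with siRNA 1, and 2494 rose and 2028 fell with siRNA 2. Between the siRNAs, 2845 were higher and 2893 lower. ATF4 had 406, 364 and 365 CPM in siRNA 1, 259, 244 and 235 CPM in siRNA 2 and 305, 296 and 308 CPM in control libraries, with no overlap. It rose by 0.32 ± 0.07 with siRNA 1 (adjusted p = 0.018), and its log2 change with siRNA 2 was -0.30 ± 0.07 (adjusted p = 0.016). The change with siRNA 2 was -0.15 (adjusted p = 0.013) with the GC trend removed and -0.27 (adjusted p = 0.0521) with upper quartile factors. Both calls were lost without any 1 control (up to 0.106 with siRNA 1, without control 2, and 0.0901 with siRNA 2, without control 3), and that with siRNA 2 also without siRNA 2 replicates 2 or 3. Between siRNA 2 and siRNA 1 ATF4 was lower by a log2 difference of -0.62 (adjusted p = 0.00034). ATF4 activity is set largely by translation, which RNA levels do not measure.

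Of the genes known as ATF4 targets, ASNS (asparagine synthesis) had 220, 232 and 227 CPM in siRNA 1, 70.9, 64.3 and 70.3 CPM in siRNA 2 and 113, 109 and 107 CPM in control libraries. ASNS changed by 1.04 ± 0.07 with siRNA 1 and -0.68 ± 0.07 with siRNA 2 (adjusted p = 0.00013 and 0.00034). CHAC1, which degrades glutathione, changed by 0.90 ± 0.16 (adjusted p = 0.0088; lost without control 1, 0.0527, or control 3, 0.0502) and -1.36 ± 0.16 (adjusted p = 0.00089). DDIT3, encoding CHOP, changed by 0.39 ± 0.10 (adjusted p = 0.038) and -1.38 ± 0.10 (adjusted p = 8.7e-05), and its siRNA 1 call was lost in 6 of 9 fits without 1 library (any 1 control, siRNA 1 replicate 3, siRNA 2 replicates 2 or 3; up to 0.151, without control 1) and with the block (adjusted p = 0.0533). ATF3, a stress-induced transcription factor, changed by 0.51 ± 0.08 (adjusted p = 0.0064) and -0.57 ± 0.08 (adjusted p = 0.0022). TRIB3, a pseudokinase that binds ATF4, rose by 0.87 ± 0.12 with siRNA 1 (adjusted p = 0.0036), and SESN2, a leucine-binding stress protein, by 0.52 ± 0.12 (adjusted p = 0.027; lost without control 1, control 2 or siRNA 1 replicate 2, up to 0.124), while with siRNA 2 they were at -0.32 (adjusted p = 0.11) and -0.16 (adjusted p = 0.42).

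CEBPB, which encodes a partner of ATF4, had 95.3, 78.3 and 80.0 CPM in siRNA 1, 44.8, 17.5 and 16.8 CPM in siRNA 2 and 82.4, 82.9 and 84.7 CPM in control libraries. Its siRNA 2 libraries were far below the rest, and replicates 2 and 3 the furthest. The change with siRNA 2 was -1.66 ± 0.32 (adjusted p = 0.009). It was -0.89 when siRNA 1 replicate 1 and siRNA 2 replicates 2 and 3 were left out, which leaves 1 siRNA 2 library. ATF5 rose by 0.51 ± 0.14 with siRNA 2 (adjusted p = 0.034; lost when any 1 control, siRNA 2 replicate 2 or siRNA 2 replicate 3 was absent, up to 0.132). CEBPG, another ATF4 partner, was called in 1 comparison, siRNA 2 against siRNA 1 (-0.68 ± 0.14, adjusted p = 0.0079), and with the GC trend removed also against control, at 0.45 for siRNA 1 (adjusted p = 0.005) and -0.34 for siRNA 2 (adjusted p = 0.02). The lysosomal regulator TFEB was likewise called between siRNA 2 and siRNA 1 (-0.44 ± 0.14, adjusted p = 0.044), lost in 7 of 9 fits without 1 library (up to 0.154) and kept without siRNA 1 replicate 3 or siRNA 2 replicate 1. Without the GC trend TFEB was at -0.24 (adjusted p = 0.12) there and at 0.34 with siRNA 1 (adjusted p = 0.044). TFE3 fell by 0.35 ± 0.08 with siRNA 1 (adjusted p = 0.033, lost in 7 of 9 such fits, up to 0.16, and kept without replicate 1 of either siRNA) and by 0.45 ± 0.08 with siRNA 2 (adjusted p = 0.0075, or 0.0521 without control 1; -0.21 and 0.097 with the GC trend removed). EIF2AK4, NFE2L2, KEAP1 and BACH1 were not called in any comparison, though with the GC trend removed KEAP1 (0.15, adjusted p = 0.034, against -0.09 without that correction) and BACH1 (-0.36, adjusted p = 0.0013) were with siRNA 2, and BACH1 also between siRNA 2 and siRNA 1 (-0.27, adjusted p = 0.0052). For EIF2AK4 the log2 change was 0.00 ± 0.08 in siRNA 1 (adjusted p = 0.99) and 0.03 ± 0.08 in siRNA 2 libraries (adjusted p = 0.82), and for NFE2L2, the activator of SLC7A11 in the antioxidant response, they were 0.05 ± 0.08 (adjusted p = 0.76) and 0.01 ± 0.08 (adjusted p = 0.97).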

How the data were processed

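Total RNA of HCT116 cells was extracted with Trizol and sequenced with Illumina's standard protocol, per the labels. The authors deposited raw read counts per Ensembl gene for all 9 libraries. The genome build was hg19 per the submitters' processing notes, and neither the labels nor the file header name the aligner, counter, annotation or strand setting. No library of another series was in the table (0 such columns).

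Counts were tested in R 4.3.3 with edgeR 4.0.16 (quasi-likelihood test, two-sided, TMM factors, filterByExpr at min.count 10 and min.total.count 15, all 9 libraries in 1 model, Benjamini-Hochberg over 20868 genes, called under 0.05), after the steps were tested on simulated data. CPM are TMM-scaled. Levels per kilobase and GC content use the longest coding transcript of the annotation in GRCh38. The GC correction removes a lowess trend (span 0.3) on GC content from each library. That trend was fitted to the deviation of log2 CPM from the gene's mean over the libraries and centred on its median. It therefore includes trends that differ between groups. Ratios had 0.5 added to each count. Alternatives were other normalizations, no filter, DESeq2 1.42.0, limma-voom (limma 3.58.1), fits of 2 groups only, a replicate block, GC correction and leaving out libraries. Setting aside siRNA 1 replicate 1 and siRNA 2 replicates 2 and 3 together was chosen after seeing the data. It left 2 siRNA 1 libraries and 1 siRNA 2 library, so only effect sizes are given for it.

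Same-numbered libraries of siRNA 2 and siRNA 1 deviated from their group means together (correlations 0.339, 0.176 and 0.240 over genes). So did siRNA 1 replicate 2 with siRNA 2 replicate 3 (0.177) and siRNA 1 replicate 3 with siRNA 2 replicate 2 (0.179). For replicate 2 the same-numbered pair was thus no closer than these pairs across numbers. Replicate 1 of either siRNA went against replicates 2 and 3 of the other (-0.226 to -0.29). Correlations of siRNA with control libraries were -0.098 to 0.104. The fit with replicate number as a block is given where it changes a call. The labels do not state what a replicate number shares between groups. Named genes were the members and the 3 nearest patterns for SLC3A2, SLC7A5 and SLC7A11. Listed transporters, amino acid response genes and regulators were named if called in any comparison at a mean log2 CPM of at least 2. Members and lists were chosen with earlier results of these data known.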

Additional observations from a re-analysis of the deposited data

How the results depend on the processing

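Of 15 calls of members, 11 were kept in all 9 fits that left out 1 library and 4 were not. The members called numbered 4 to 6 with siRNA 1, 3 to 6 with siRNA 2 and 4 to 6 between siRNA 2 and siRNA 1 when each library was left out in turn. With siRNA 2, 7 members were called with the GC trend removed, with or without a replicate block. Other transporters called with siRNA 1 were 10 in both of these settings and 2 to 7 with 1 library left out. With siRNA 2 they were 2 with no filter, 7 with DESeq2, 8 with only 2 groups and 2 to 9 with 1 library left out. Between siRNA 2 and siRNA 1 they were 8 with only 2 groups and 7 to 13 with 1 left out.
The difference in log2 ratio of SLC3A2 to SLC7A5 ranged from -0.02 to 0.01 for siRNA 1 against control (0.01 without control 2), 0.66 to 0.75 for siRNA 2 against control and 0.67 to 0.76 for siRNA 2 against siRNA 1, with 0.61 and 0.63 for the last pair after GC correction. For SLC3A2 to SLC7A11 the ranges were -0.58 to 0.16, -1.43 to -1.11 and -1.38 to -0.64, with -0.46 for siRNA 2 against siRNA 1 after GC correction, and 0.16 and 0.15 for siRNA 1 against control without siRNA 1 replicates 2 and 3.
Of the values that changed sign, SLC38A10 between siRNA 2 and siRNA 1 had been called (-0.36, adjusted p = 0.028) and the others had not. SLC38A1 gave -0.19 to 0.04 with siRNA 1 when 1 library was left out (0.04 without siRNA 1 replicate 1). Leaving out the 3 libraries that follow GC content leaves 1 siRNA 2 library. SLC38A1 was then at 0.05 with siRNA 1, -0.02 with siRNA 2 and -0.07 between siRNA 2 and siRNA 1. SLC38A2 gave -0.03 between siRNA 2 and siRNA 1 with GC correction, with or without the block, and -0.06 without the 3 libraries. SLC6A9 gave -0.12 to 0.07 with siRNA 1 (0.07 without control 1 and 0.05 without siRNA 1 replicate 3). SLC38A10 gave 0.02 between siRNA 2 and siRNA 1 after GC correction, with or without the block. The cause of these changes was not tested.
Over all genes, 1478 were called with siRNA 1, against 969 with no filter, 2943 with DESeq2, 4259 with GC correction, 3931 with GC correction and block and 439 to 2538 with 1 left out. With siRNA 2, 2872 were called, against 4664 with only 2 groups, 4522 with GC correction and 1080 to 5289 with 1 left out. Between siRNA 2 and siRNA 1, 4681 were called, against 2325 with only 2 groups and 2130 to 5843 with 1 left out. Among the members, the replicate block ended the call of SLC43A1 (0.58, adjusted p = 0.065) and added SLC38A2 (-0.48, adjusted p = 0.047), both with siRNA 1. Among the listed transporters, amino acid response genes and regulators it ended SLC6A20 and DDIT3 with siRNA 1. It added SLC38A10 and MFSD12, lower with siRNA 2, and it changed no other call on these lists in the 3 comparisons. With 3 libraries a group, the standard error was 0.15 for SLC43A1 (3.28 to 4.17 CPM in control libraries), against 0.06 for SLC7A1. It did not follow level alone, being 0.15 also for SLC38A2 (619 to 640 CPM in control libraries) and 0.09 for SLC1A4 (12.6 to 13.8 CPM).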

Other observations

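Of the 44 other transporter genes listed, 16 were under the filter on low counts. Among them 9 had 0 counts in all 9 libraries, which allows a level of up to 0.0451 to 0.0529 CPM per library (3 counts, counting error only). They include SLC6A14 and SLC6A19, broad neutral amino acid carriers of intestinal epithelium, and SLC7A3, a cationic carrier. The other 7 had at most 10 counts in any library.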
